A study of Mus musculus with 6 samples.

Results

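The genes of 7 matrix metalloproteinases (*Mmp2*, *Mmp3*, *Mmp9*, *Mmp11*, *Mmp12*, *Mmp13* and *Mmp14*) and of 3 tissue inhibitors of metalloproteinases (*Timp1*, *Timp2* and *Timp3*) were followed in primary ovarian tumors, grown in wild-type (WT) mice or in *Tgm2* knockout mice. The 10 genes were taken by symbol from a given list, with no threshold on their values, although earlier results of these data were known when the list was made, and all 10 were found among the 20076 genes of the table. The injected cells were of the ID8 Trp53-/- Brca1-/- line, mouse ovarian cancer cells without either tumor suppressor, placed under the ovarian bursa of C57BL/6 WT mice or of mice lacking *Tgm2*, and they were collected 6 weeks later. Mice of the study were 6 to 10 weeks old. There were 3 tumors per genotype, numbered 1 to 3 within each, and all 6 received the same cancer cells, so only the host differed in *Tgm2*. Bulk RNA was sequenced, and the deposited values are read counts estimated per gene and divided by a size factor for depth, called normalized counts here. They summed to between 32316613 and 37717165 per tumor. A single read was worth between 0.939 and 1.08 normalized counts, and the lowest value of any of the 10 genes was 123. The labels number the tumors but do not state that each came from a separate mouse, so the p-values measure the spread between these tumors.

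Matrix metalloproteinases are zinc-dependent proteases that cut collagens, elastin, proteoglycans and many cell surface proteins. They are made as inactive precursors in which a cysteine of the propeptide blocks the zinc, and they become active when the propeptide is removed. TIMPs stop the active enzymes by placing their first cysteine on the same zinc, and TIMP2 also takes part in the activation of the MMP2 precursor by the membrane enzyme MMP14. In tumors most of these genes are transcribed by fibroblasts, macrophages and other stromal cells as well as by cancer cells. In bulk RNA, fewer cells of a type and less RNA per cell cannot be told apart.

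The zinc-binding stretch is what the 7 proteases share and what the inhibitors act on, so its codons are shown first. Each line holds the 11 codons (33 bases, 5′ to 3′, coding strand) of the GENCODE M21 transcript with the longest reading frame, with the codons of the 3 zinc-holding histidines in capitals.
Mmp2: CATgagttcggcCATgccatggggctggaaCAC
Mmp9: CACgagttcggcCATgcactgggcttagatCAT
Mmp3: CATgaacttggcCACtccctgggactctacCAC
Mmp12: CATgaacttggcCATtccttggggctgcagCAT
Mmp13: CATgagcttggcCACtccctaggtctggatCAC
Mmp11: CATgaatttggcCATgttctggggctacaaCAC
Mmp14: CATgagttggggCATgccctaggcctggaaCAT
On GRCm38 these stretches lie at chr8:92839279-92839311 and chr2:164951133-164951165 in exon 8 of *Mmp2* and *Mmp9*. In the other genes they lie in exon 5, at chr9:7449775-7449807 in *Mmp3*, chr9:7352914-7352946 in *Mmp12*, chr9:7276573-7276605 in *Mmp13*, chr10:75926931-75926963 in *Mmp11* (minus strand) and chr14:54437627-54437659 in *Mmp14*. Pairs of members differed at 6 to 13 of the 33 bases. The distance from the propeptide cysteine stretch to the zinc stretch was 128 codons in *Mmp3*, *Mmp12* and *Mmp13*, 148 in *Mmp14*, and 303 in *Mmp2* and *Mmp9*, whose gelatinase insert lies between them. Between the propeptide cysteine and the zinc site, or before the zinc site where the cysteine pattern was not matched, 2 members held a furin cleavage pattern (arginine, any residue, lysine or arginine, arginine), at which the precursor can be cut inside the cell. Their 4 codons are shown with those of the basic residues that define the pattern in capitals.
Mmp11: CGAcagAAGCGC
Mmp14: CGGaggAAGCGC
These lie at chr10:75928327-75928338 in exon 2 of *Mmp11* and at chr14:54436202-54436213 in exon 3 of *Mmp14*. The inhibitors are represented by the 10 codons that begin the mature protein, with the codons of the 2 cysteines at the inhibitory edge in capitals.
Timp1: TGTagcTGTgccccaccccacccacagaca
Timp2: TGCagcTGCtccccggtgcacccgcaacag
Timp3: TGCacaTGCtctcccagccatccccaggat
They lie at chrX:20871111-20871140 in exon 2 of *Timp1*, chr11:118354983-118355012 in exon 1 of *Timp2* (minus strand) and chr10:86300923-86300952 in exon 1 of *Timp3*, and pairs of them differed at 12 to 14 of the 30 bases.

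Before the comparison, the targeted gene and the makeup of the libraries were examined. The mean of *Tgm2* was 13437.5 ± 1429 normalized counts for WT and 6694 ± 1272 for knockout tumors (SD, n = 3), without overlap. In limma the log2 fold change of *Tgm2* was -1.02 (standard error 0.22, with adjusted p = 0.391). The labels give the cell type as cancer cells. Of the 12 epithelial and mesothelial markers listed for ID8 cells, none was at 0 in any tumor. *Krt8* lay between 10373 and 21948, *Wt1* between 13131 and 20641 and *Msln* between 5107 and 7208 normalized counts. Stromal and immune markers were also present in every tumor, so the values describe whole tumors and not purified cancer cells. Some libraries stood apart. WT tumor 3 held 8047 normalized counts of *Epcam*, 6588 of *Cdh1* and 1905 of *Pax8*, against highest values of 1307, 1876 and 437 in the other 5 tumors. These are genes of polarized and Müllerian epithelium, and they belong to the same list of ID8 markers. Their lowest values, in WT tumor 1, were 90.5, 224 and 40.9 normalized counts. Knockout tumor 1 held 25704 normalized counts of *Hsd3b1* and 22480.4 of *Cyp11a1*, enzymes of steroid-making ovarian cells, and WT tumor 1 held 5526 and 8648, while the other 4 tumors held at most 68.1 and 209. The white adipocyte markers summed to 55910, 68663 and 41100 over WT tumors 1 to 3, and to 61615, 225480 and 135500 over knockout tumors 1 to 3. In the mean of their log2 values, which weights the 15 markers equally, the tumors had 9.81, 10.27 and 9.49 for WT and 10.75, 12.52 and 11.79 for knockout, so the groups overlapped in the sum but not in this mean.

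None of the 10 genes passed the limits of the comparison between *Tgm2* knockout and WT tumors, which asked for both an adjusted p of 0.05 from limma on log2(value + 1) and a log2 fold change of 1 in either direction. Of the 19667 genes tested, 20 did, or 0.102%, all of them higher in knockout tumors. This count was 2 to 14 with 1 tumor left out, 4 without the variance trend and 0 with the mean of the white adipocyte markers as a covariate. Since that mean separates the genotypes, the covariate widens the errors, for *Mmp2* from a standard error of 0.32 to one of 0.61. The log2 fold change of *Mmp2* moved as well, from 0.39 to 0.05. At an unadjusted p-value of 0.05, 0 members were higher and 0 were lower, beside 5.78% of all genes in either direction (3.4% higher and 2.38% lower). At that limit 2 members were higher without WT tumor 1 (*Mmp2* and *Mmp12*), 1 was lower without knockout tumor 2 (*Mmp3*), and 2 were lower with the adipocyte covariate (*Mmp3* and *Timp2*). The 5.78% belongs to the main fit, and the share of all genes in these other fits is not given. These 3 counts are therefore not read as a result about the members. The median log2 fold change was 0.02 over the 10 members and -0.03 over all genes tested. Groups without overlap were seen for 1 of the 10 members, beside 10.5% of all genes. The precision differed between members. The 95% interval of the log2 fold change stayed within 1 in both directions for *Mmp11* (-0.41 to 0.49) and *Mmp14* (-0.55 to 0.48), so a change of more than 2-fold lies outside it. For the other 8 genes a 2-fold change in at least 1 direction lies inside the interval, and the data cannot separate such a change from none. Without WT tumor 3 the 10 log2 fold changes ran from -1.10 to 0.06, and without knockout tumor 1 from -0.64 to 0.91. None passed an adjusted p of 0.05 in limma either way.

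**Figure D1:**
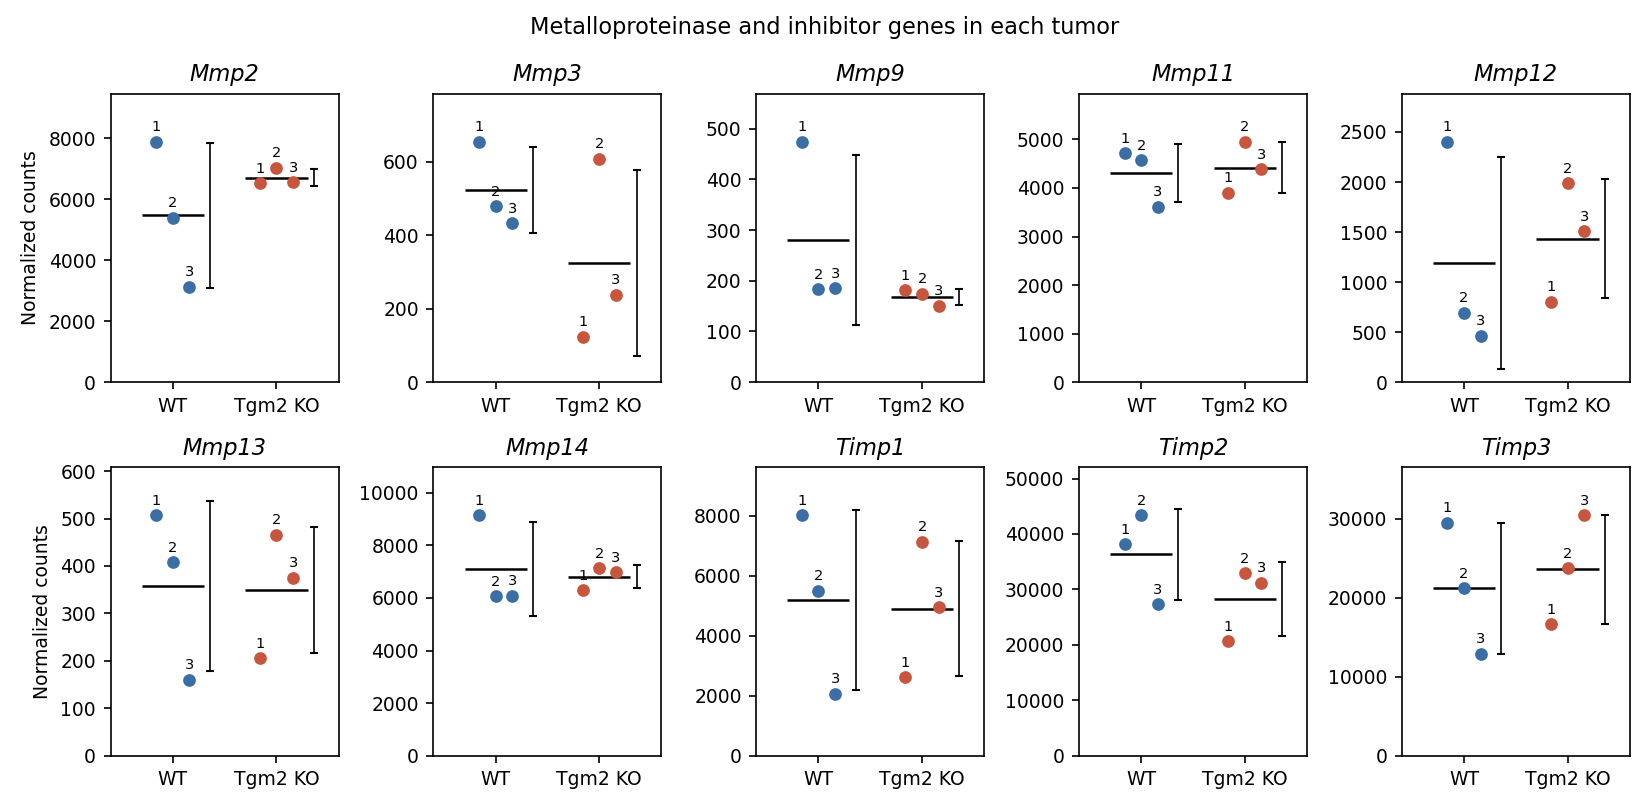
Normalized counts (vertical axis, linear from 0) of the 10 genes in each of 3 WT tumors (blue) and 3 *Tgm2* knockout tumors (red), with tumor numbers beside the points, the group mean as a horizontal line and the SD as a bar beside it. WT tumor 1 is the highest of all tumors in 7 panels and WT tumor 3 the lowest in 6, and the groups overlap in all panels except *Mmp9*.

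The gelatinases MMP2 and MMP9 cut denatured collagen and the type IV collagen of basement membranes. *Mmp2* (chromosome 8 of GRCm38, 92827291 to 92853420), which is made mainly by stromal cells, stood at 7895, 5398 and 3137 normalized counts for WT tumors 1, 2 and 3, against 6537, 7042 and 6557 for knockout tumors 1, 2 and 3. All later values keep this order. The knockout tumors lay close together, within 1.08-fold, while the WT tumors spanned 2.52-fold, above and below them. The log2 fold change was 0.39 (95% interval -0.34 to 1.12, adjusted p = 0.898 from limma). It was 0.70 without WT tumor 1, with an unadjusted p of 0.0373 from limma, and 0.04 without WT tumor 3.
*Mmp9* (chromosome 2, 164940780 to 164955850), a product of macrophages and neutrophils among other cells, had 474, 183.02 and 185 normalized counts in WT tumors and 181.24, 174 and 151 in knockout tumors. The knockout tumors were all below the WT tumors, at an exact permutation p of 0.1 (two-sided), the lowest possible with 3 tumors a group, but only WT tumor 1 was far from the rest. Among all genes, 5.33% had every knockout tumor below every WT tumor. The log2 fold change of -0.58 (95% interval -1.58 to 0.41, adjusted p = 0.896 from limma) was -0.13 without WT tumor 1.

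*Mmp3*, *Mmp12* and *Mmp13* belong to the cluster of metalloproteinase genes on chromosome 9, where 7 genes of the family with values in the table lie within 427072 bases of GRCm38. The order of these 7 is *Mmp13* (7272514 to 7283331), *Mmp12* (7344381 to 7369499), *Mmp3* (7445822 to 7455975), *Mmp10*, *Mmp8*, *Mmp27* and *Mmp7*. Further family genes without values here, *Mmp1b*, *Mmp1a* and *Mmp20*, lie between them. *Mmp3*, or stromelysin 1, which cuts proteoglycans and activates other precursors, had 654, 479 and 433 normalized counts in WT tumors and 123, 607 and 238 in knockout tumors. Its mean was 522 ± 117 in WT and 323 ± 253 in knockout tumors (SD, n = 3), but knockout tumor 2 lay among the WT tumors. The log2 fold change of *Mmp3* was the furthest from 0 of the 10, at -0.97 (95% interval -2.20 to 0.25, adjusted p = 0.889 from limma). Without knockout tumor 1, the library with high steroidogenic genes, it was -0.43, and without knockout tumor 2 it was -1.58 (unadjusted p = 0.00549, adjusted p = 0.904 from limma).
*Mmp12*, the macrophage elastase, had 2404, 692 and 465 normalized counts in WT tumors and 803, 1991 and 1506 in knockout tumors. It varied more than any other member within WT tumors, by 5.17-fold, and its log2 fold change was 0.55 (95% interval -0.80 to 1.89, adjusted p = 0.912 from limma). Without WT tumor 1 this became 1.24 (unadjusted p = 0.0186, adjusted p = 0.632 from limma), and without WT tumor 3 it became 0.06.
*Mmp13*, collagenase 3, which cuts fibrillar collagen, had 507, 408 and 160.1 normalized counts in WT tumors and 206, 466 and 376 in knockout tumors. The groups covered almost the same range, and the log2 fold change was 0.04 (95% interval -1.10 to 1.18). This value was 0.38 without knockout tumor 1, -0.46 without WT tumor 3 and -1.47 with the adipocyte covariate.

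The promoters of these neighbours are shown because their values varied between tumors of the same genotype and they share a motif. The RefSeq promoter table (GRCm38.p6, 250 bases before to 50 after each gene start) held 8 of the 10 members, all but *Mmp2* and *Mmp9*. The AP-1 motif TGANTCA, bound by FOS and JUN proteins, was searched on both strands, on which it reads alike. It was found in 3 of these 8 genes, *Mmp3*, *Mmp12* and *Mmp13*, and in 8.97% of all 27025 genes of the table (7.81% of its 32851 promoters). Of the 14 other family genes in the table, 5 held it, among them *Mmp10*. Each line gives 100 bases before to 20 bases after the gene start on the plus strand, with the motif in capitals.
Mmp13: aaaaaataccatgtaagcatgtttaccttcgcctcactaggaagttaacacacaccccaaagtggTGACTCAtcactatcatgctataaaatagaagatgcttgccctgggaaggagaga
Mmp12: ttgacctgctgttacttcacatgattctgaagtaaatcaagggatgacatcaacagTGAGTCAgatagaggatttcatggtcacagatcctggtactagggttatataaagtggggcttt
Mmp3: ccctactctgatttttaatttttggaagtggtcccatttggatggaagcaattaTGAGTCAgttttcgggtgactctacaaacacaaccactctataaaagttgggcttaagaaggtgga
Mmp10: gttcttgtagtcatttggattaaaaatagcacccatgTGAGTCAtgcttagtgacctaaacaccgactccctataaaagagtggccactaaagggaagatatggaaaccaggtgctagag
These stretches are chr9:7272414-7272533 for *Mmp13*, chr9:7347274-7347393 for *Mmp12* (of its 2 annotated starts, the one whose window holds the motif), chr9:7445722-7445841 for *Mmp3* and chr9:7502242-7502361 for *Mmp10*. The motif begins 35, 44, 46 and 63 bases before the gene start in the same order. A match of letters is a description and no evidence of binding. *Mmp10*, stromelysin 2 and the nearest neighbour of *Mmp3* among the genes with values (46376 bases away), had 245, 265 and 164 normalized counts in WT tumors and 62.5, 238 and 99.2 in knockout tumors. As for *Mmp3*, knockout tumors 1 and 3 were the lowest and knockout tumor 2 lay among the WT tumors. The log2 fold change of *Mmp10* was -0.94 (95% interval -2.15 to 0.27, adjusted p = 0.889 from limma).

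*Mmp11* and *Mmp14*, the members with a furin pattern, were the steadiest of the 10 genes over the 6 tumors, which spanned 1.37- and 1.51-fold. Within the knockout tumors alone *Mmp2* spanned less (1.08-fold) than *Mmp11* (1.27-fold) and *Mmp14* (1.13-fold). *Mmp11* (chromosome 10, 75923222 to 75936496), stromelysin 3, is typical of fibroblasts around carcinomas. It had 4718, 4577 and 3615 normalized counts in WT tumors and 3903, 4955 and 4381 in knockout tumors, within 1.31-fold in each group. The fold change of *Mmp11* on the log2 scale was 0.04 (standard error 0.20, with adjusted p = 0.984) in limma. *Mmp11* overlaps *Chchd10* on the opposite strand, which had 6079 to 13573 normalized counts, and whether the counting used strand is not given in the sources used here.
*Mmp14* (chromosome 14, 54431612 to 54445364), a collagenase anchored in the cell membrane, had 9150.1, 6067 and 6077 normalized counts in WT tumors and 6297, 7138 and 6985 in knockout tumors. WT tumor 1 was high and the other 5 tumors lay between 6067 and 7138. In limma the log2 fold change was -0.03 (standard error 0.22, with adjusted p = 0.986), and its sign changed without WT tumor 1 (0.16).

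The inhibitors were abundant and overlapped between the genotypes. *Timp1* (X chromosome, 20870166 to 20874735), the form most readily induced by cytokines, had 8026, 5508 and 2062 normalized counts in WT tumors and 2619, 7136 and 4961 in knockout tumors. Its group means, 5199 ± 2994 and 4905 ± 2259 (SD, n = 3), were close, but the log2 fold change of 0.01 had a wide 95% interval (-1.19 to 1.21). Its direction was not stable, with 0.43 without WT tumor 1, -0.55 without WT tumor 3 and -1.74 with the adipocyte covariate. *Timp2* (chromosome 11, 118301069 to 118355740) had 38148, 43405.5 and 27374.5 normalized counts in WT tumors and 20655, 32889 and 31239 in knockout tumors. Its mean was lower in knockout tumors, with overlap between WT tumor 3 and knockout tumors 2 and 3, and the log2 fold change was -0.36 (95% interval -1.10 to 0.37, adjusted p = 0.905 from limma). It was -0.15 without knockout tumor 1 and -0.56 without WT tumor 3.
*Timp3* (chromosome 10, 86300372 to 86349506), which is held in the matrix and also inhibits ADAM17 and aggrecanases, had 29521.5, 21188 and 12934 normalized counts in WT tumors and 16613, 23707 and 30465 in knockout tumors. Both groups spanned about the same range, with a log2 fold change of 0.19 (95% interval -0.66 to 1.04). That value was 0.47 without WT tumor 1, -0.13 without WT tumor 3 and -0.55 with the adipocyte covariate. *Timp1* and *Timp3* lie inside *Syn1* and *Syn3* on the opposite strand, whose highest values were 214 and 70.6 normalized counts.

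**Figure D2:**
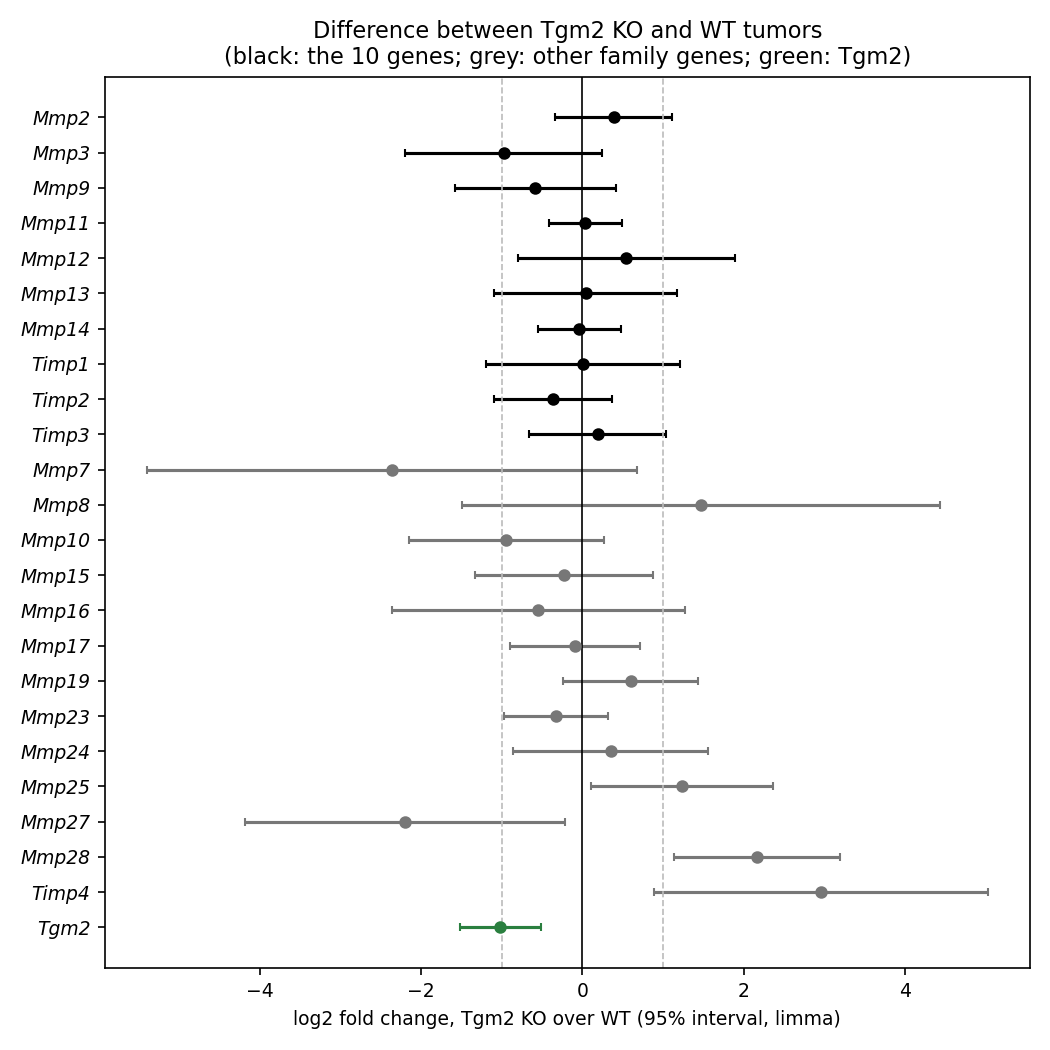
Log2 fold change of *Tgm2* knockout over WT tumors (horizontal axis; dashed lines at -1 and 1) with its 95% interval from limma for the 10 genes (black), 13 other genes of the family (grey) and *Tgm2* (green), n = 3 tumors per group. All 10 black intervals cross 0, and that of *Mmp28*, 1.14 to 3.20, lies above 1.

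Levels of different genes were compared per kilobase of annotated exon. *Timp2* was the highest, with a mean over the 6 tumors of 8287 normalized counts per kilobase, followed by *Timp1* with 5689 and *Timp3* with 2751. The proteases *Mmp2*, *Mmp11* and *Mmp14* followed with 1808, 1569 and 1166 normalized counts per kilobase. The third tier held *Mmp3* with 235, *Mmp12* with 181, *Mmp13* with 132 and *Mmp9* with 63.5 normalized counts per kilobase. With the tumors pooled, the ranges of neighbouring genes within a tier overlapped, and so did those of *Timp3* and *Mmp2*. Inside each single tumor, however, *Timp2* exceeded *Timp1*, *Timp1* exceeded *Timp3* and *Timp3* exceeded *Mmp2*. In knockout tumor 2 *Timp2* and *Timp1* were close, at 43.5% and 41.5% of the summed inhibitor level per kilobase. The step from *Mmp14* to *Mmp3* was the only place in the order where the pooled ranges of neighbours did not overlap. The lowest tumor for *Mmp14* had 1018 and the highest for *Mmp3* had 363 normalized counts per kilobase. With the length of the longest transcript in place of all exons, *Mmp14* moved from place 6 to place 4 and *Mmp12* passed *Mmp3*, and the inhibitors kept places 1 to 3. Summed over members per kilobase, the 3 inhibitors exceeded the 7 proteases by 3.41-, 4.13- and 2.98-fold in WT tumors 1 to 3 and by 2.19-, 3.28- and 3.32-fold in knockout tumors 1 to 3. These ratios overlapped between the genotypes. They concern transcripts and not active protein. *Mmp2* made up 35.5%, 33.1% and 25.4% of the summed protease level per kilobase in WT tumors and 41.2%, 35.4% and 37.3% in knockout tumors, so its share was lowest in WT tumor 3 and highest in knockout tumor 1.

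**Figure D3:**
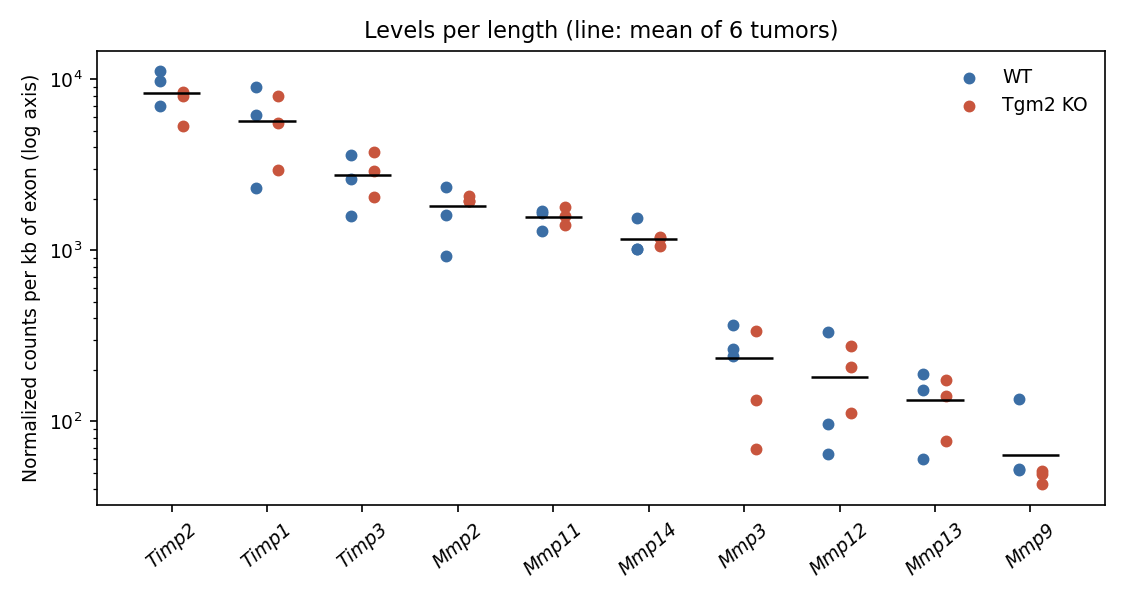
Normalized counts per kilobase of exon (vertical log axis) of the 10 genes in 3 WT (blue) and 3 *Tgm2* knockout tumors (red), ordered by the mean of the 6 tumors (line). The inhibitors lie highest, *Mmp2*, *Mmp11* and *Mmp14* follow, and a gap separates them from the other 4 proteases.

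These genes varied between tumors of the same genotype. WT tumor 1 was the highest of the 6 tumors for 7 of the 10 members, against 10.7% of all genes tested. WT tumor 3 was the lowest for 6 of the 10, against 21.9% of all genes. In knockout tumors, tumor 1 was the lowest of the 3 for 9 members, all except *Mmp9*, against 34.4% of all genes, although for *Mmp2* it was close to tumor 3 (6537 and 6557 normalized counts). The median SD within groups was 0.55 on the log2 scale for the members, 0.34 over the 12992 genes with a mean of at least 100 normalized counts, as all members have, and 0.45 over all genes tested. The 26 matrix substrates, among them the fibrillar collagens *Col1a1* and *Col3a1*, had their highest value in WT tumor 1 for 15 genes and their lowest in WT tumor 3 for 22. *Col1a1* had 89048 normalized counts in WT tumor 1 and 24789 in WT tumor 3.
The 12 macrophage markers together had 59596, 41916 and 25064 normalized counts in the WT tumors, against 30243, 85197 and 65695 in the knockout tumors. The most abundant was *C1qa*, and none was at 0 in any tumor. *Mmp12* was highest in WT tumor 1, whereas the macrophage sum was highest in knockout tumor 2. The 12 fibroblast markers summed to 44452, 39130 and 23679 in WT tumors and to 32267, 47896 and 38971 in knockout tumors, with *Pdpn* as the most abundant gene and none at 0. The part of these cell types in the variation of the members was not tested.

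**Figure D4:**
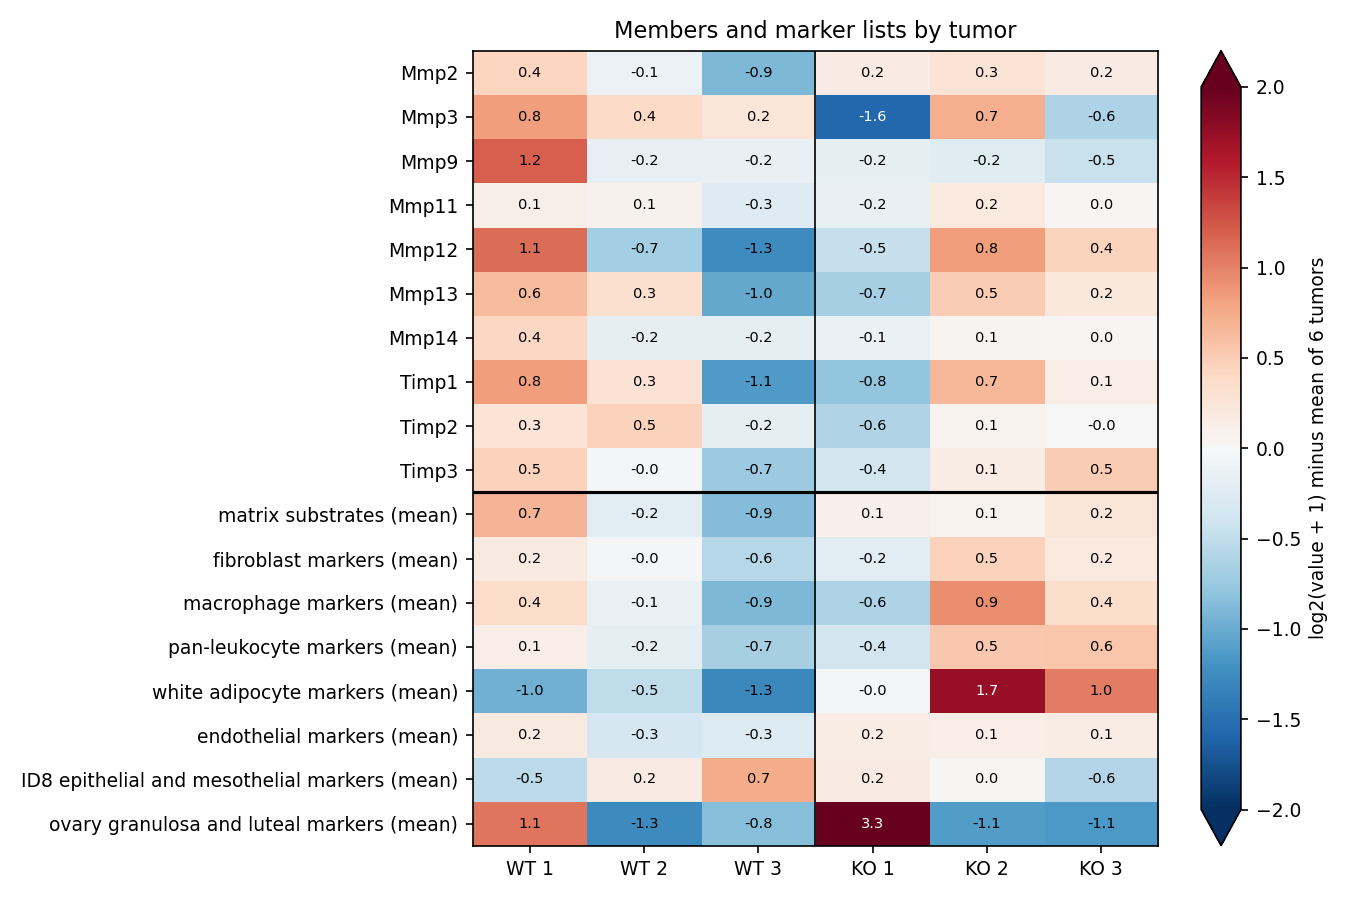
Log2(value + 1) minus its mean over the 6 tumors (colour scale ending at -2 and 2, value in each cell) for the 10 genes (above the line) and the mean of 8 gene lists (below), by tumor. WT tumor 1 is above the mean and WT tumor 3 mostly below it for the members, matrix substrates and macrophage markers, while white adipocyte markers are higher in knockout tumors 2 and 3.

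For 5 members the genes with the most similar pattern were sought among 12992 genes with a mean of at least 100 normalized counts, by the root mean square difference of log2 values centred on their mean over the 6 tumors. *Timp1* was closest to *Mmp13* (0.12 on the log2 scale), then to the chemokine *Cxcl10* and the keratin *Krt14*. *Mmp2* was closest to *Rcn1* (0.05), *Magee1* and *Prss35*, and *Mmp14* to *Inafm2* (0.06), *Cpne1* and *Naa15*. *Mmp9* was closest to *Stac2* (0.15), *Nxnl2* and *Insyn1*, and *Mmp12* to *F10* (0.25), *Csprs* and *AU015836*.

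Outside the 10 genes, 13 of 17 further genes of the family had values, and the expression of the other four was not analysed here. None passed the adjusted limits, and at an unadjusted p of 0.05 from limma, 3 were higher and 1 was lower in knockout tumors, beside 3.4% and 2.38% of all genes. *Mmp28*, or epilysin, had 342, 105 and 150.1 normalized counts in WT tumors and 711, 652 and 1078 in knockout tumors. The knockout tumors were all above the WT tumors, beside 5.18% of all genes with that order. The log2 fold change was 2.17 (95% interval 1.14 to 3.20, adjusted p = 0.350 from limma), and it ranged from 1.80 to 2.65 over 16 alternative settings, with adjusted p-values of at least 0.116. *Mmp25*, which encodes a leukocyte enzyme anchored in the membrane, had 126, 62.3 and 72.8 normalized counts in WT tumors and 153, 147 and 339 in knockout tumors, and limma gave 1.24 on the log2 scale (adjusted p = 0.819).
*Timp4*, an inhibitor with high expression in fat and heart, had 21.9, 146 and 27.2 normalized counts in WT tumors and 416, 899 and 118 in knockout tumors. Knockout tumor 3 lay below WT tumor 2, and limma gave a log2 fold change of 2.96 (standard error 0.90, with adjusted p = 0.682). Knockout tumor 2 had the highest value of *Timp4* and the highest sum of white adipocyte markers, but knockout tumor 3, with the next highest sum, had less *Timp4* than knockout tumor 1 and WT tumor 2. With the mean of those markers as a covariate the log2 fold change of *Timp4* was 1.26 (standard error 1.69) and that of *Mmp28* was 2.47 (standard error 0.89). The part of adipocytes in these values was not tested.
*Mmp27* was low, with 14.0, 8.20 and 13.2 normalized counts in WT tumors and 1.93 and 5.98 in knockout tumors 1 and 2, and was listed at 0 in knockout tumor 3. *Mmp7*, matrilysin, an epithelial protease, had 2215 normalized counts in WT tumor 3, the library with high *Epcam*, and 22.7 to 70.6 in the other 5 tumors. The most abundant of these 13 genes, *Mmp15*, *Mmp23* and *Mmp19*, had log2 fold changes of -0.23, -0.33 and 0.60 with overlapping groups. *Mmp8*, *Mmp16*, *Mmp17* and *Mmp24* had an unadjusted p over 0.2 in limma.

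**Figure D5:**
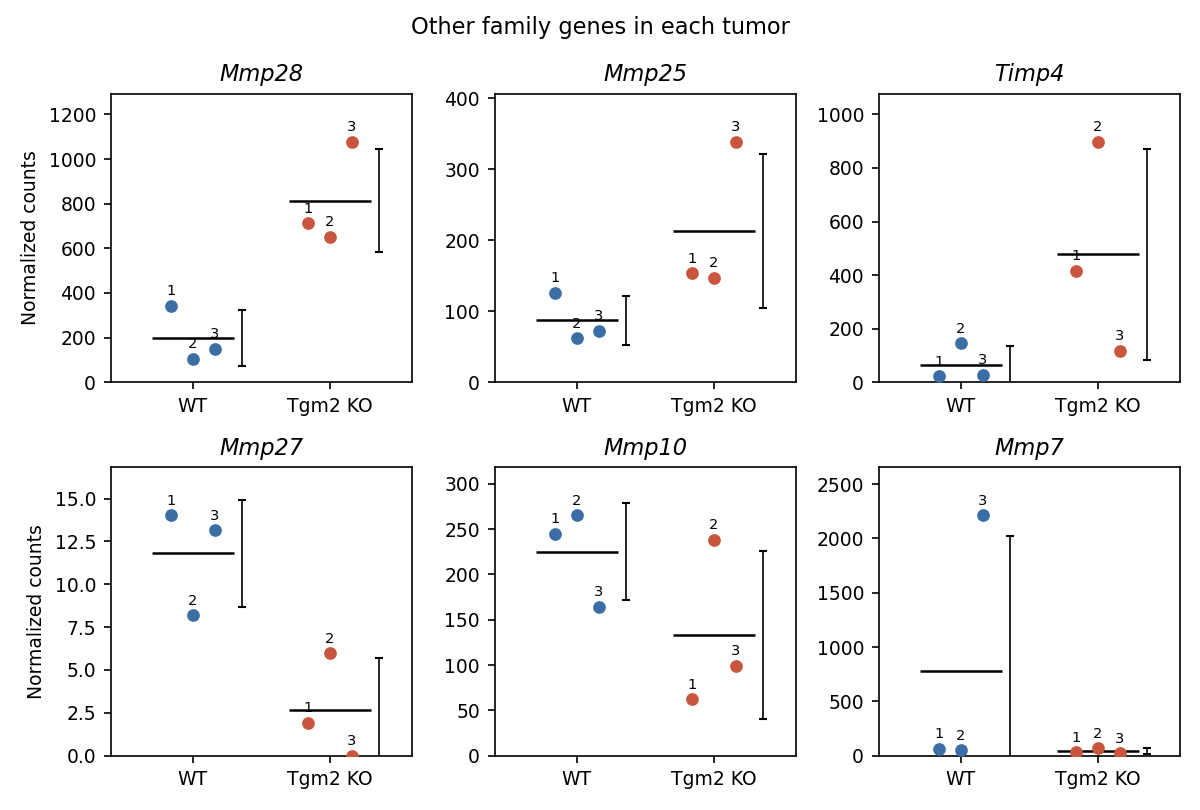
Normalized counts (vertical axis, linear from 0) of 6 further family genes in each WT (blue) and *Tgm2* knockout tumor (red), with tumor numbers, group means (lines) and SD (bars, cut where they would pass below 0). *Mmp28* and *Mmp25* are higher in all 3 knockout tumors, an order seen in 5.18% of all genes. *Mmp27* is lower in all 3, as are 5.33% of all genes. The high value of *Mmp7* is WT tumor 3 alone.

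The genes that activate, anchor or clear the proteases were examined next. Of 25 listed, 24 were tested, with a median log2 fold change of 0.11, and 0 passed the adjusted limits. At an unadjusted p of 0.05, 1 was higher and 0 were lower, beside 3.4% and 2.38% of all genes. The higher gene was *Ctsg*, a neutrophil serine protease listed at 0 for each WT tumor and at 8.62, 3.60 and 1.80 normalized counts for the knockout tumors, a level of a few reads. *Plat*, the tissue plasminogen activator, had 7809, 8249 and 10474 normalized counts in WT tumors and 4650 to 7612 in knockout tumors. All of the latter were below the WT tumors, beside 5.33% of all genes with that order (log2 fold change -0.53, adjusted p = 0.880 from limma). The 3 most abundant genes were *Bsg*, an inducer of metalloproteinases on the cell surface, the clearance receptor *Lrp1*, and *Thbs1*, with log2 fold changes of -0.31, 0.26 and 0.57. Their groups overlapped.
Of the 26 ADAM and ADAMTS proteases, relatives that TIMP3 also inhibits in part, 0 passed the adjusted limits and the median log2 fold change was 0.02. At an unadjusted p of 0.05, 2 were higher and 1 was lower, beside 3.4% and 2.38% of all genes. *Adamts5*, an aggrecanase, had 619, 474 and 329 normalized counts in WT tumors and 880.5, 772 and 1018 in knockout tumors (log2 fold change 0.95, standard error 0.28, adjusted p = 0.682 from limma). For *Adamts15* limma gave 1.04 on the log2 scale (adjusted p = 0.781). The knockout tumors were all above the WT tumors for 2 of the 26 genes, *Adamts5* and *Adamts15*, beside 5.18% of all genes. They were all below for 1 of the 26, beside 5.33% of all genes. *Adam33*, the lower gene, had 2464 normalized counts in WT tumor 3 alone and 117 to 703 in the other 5 tumors. *Adam10*, *Adam9* and *Adamts9*, the most abundant, had log2 fold changes of 0.18, -0.12 and -0.18.

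Substrates and inducers were described in the same way. The 26 matrix substrates had a median log2 fold change of 0.37. At an unadjusted p of 0.05, 1 was higher and 1 was lower, beside 3.4% and 2.38% of all genes (*Nid1*, a basement membrane protein, at 0.86, and *Col2a1*, with at most 25.8 normalized counts, at -2.34). The most abundant, *Col3a1*, *Bgn* and *Col1a1*, had log2 fold changes of 0.57, 0.29 and 0.63 with overlapping groups. Of the 26 genes of cytokines, growth factors and transcription factors that induce metalloproteinases, 0 were higher and 3 were lower at an unadjusted p of 0.05, beside 3.4% and 2.38% of all genes, with a median of -0.09. *Fos*, a part of AP-1, had 699, 622 and 905 normalized counts in WT tumors and 475, 478 and 495 in knockout tumors (log2 fold change -0.60, standard error 0.24, adjusted p = 0.819 from limma). *Hbegf*, a ligand of the EGF receptor, had 297, 417 and 356 in WT tumors and 186, 219 and 144 in knockout tumors (log2 fold change -0.97, adjusted p = 0.736 from limma), and *Il1a* had a log2 fold change of -1.43. For 4 of the 26 genes, these 3 and *Tnf*, the knockout tumors were all lower than the WT tumors, beside 5.33% of all genes. The most abundant of the list, *Jund*, *Stat3* and *Fosl2*, had log2 fold changes of 0.16, -0.13 and 0.31.

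Markers of the cells in these tumors are given for the same comparison. The 15 white adipocyte markers had a median log2 fold change of 1.95, and *Lpl* was the most abundant. At an unadjusted p of 0.05, 13 were higher, beside 3.4% of all genes. The adjusted limits were passed by 1, *Lep*, beside 0.102% of all genes. The 9 plasma cell markers had a median of 2.24, and *Jchain*, the most abundant, and *Mzb1* passed the adjusted limits, beside 0.102% of all genes. With the adipocyte covariate, to which *Lep* itself belongs, the log2 fold change of *Jchain* went from 4.80 to 4.31 (adjusted p = 0.208 from limma) and that of *Mzb1* from 4.27 to 4.28 (adjusted p = 0.463 from limma). *Mzb1* also missed the limit without WT tumor 2 (adjusted p = 0.0692) and without the variance trend (adjusted p = 0.063) in limma. Both lists were chosen with earlier results of these data known. The macrophage, fibroblast, endothelial and pan-leukocyte markers had medians of 0.45, 0.24, 0.44 and 0.48, and 0 of these genes passed the adjusted limits. At an unadjusted p of 0.05, 2 of 12, 2 of 12, 1 of 10 and 1 of 8 of them were higher, beside 3.4% of all genes. The 12 epithelial and mesothelial markers of ID8 cells had a median of -0.32 with 1 lower, beside 2.38% of all genes, and *Wt1* was the most abundant. For 3 of the 12, among them *Krt8* and *Krt19*, the knockout tumors were all below the WT tumors, beside 5.33% of all genes. Of the 11 neutrophil markers tested, 1 was higher, beside 3.4% of all genes, with a median of -0.33. *S100a8*, the granulocyte marker, had at most 235 normalized counts, and the most abundant gene of this list, *Ltf*, had 52176 normalized counts in WT tumor 3, where *S100a8* had 54.1. The 9 ovarian granulosa and luteal markers tested had a median of 0.83, with the highest value in knockout tumor 1 for 8 of the 9. Of them, 0 passed an unadjusted p of 0.05, beside 5.78% of all genes in either direction. The most abundant endothelial gene was *Pecam1*, the most abundant pan-leukocyte gene *Laptm5* and the most abundant ovarian gene *Star*.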

How the data were processed

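Bulk RNA of 6 primary tumors was analysed. Per the labels and the study's methods, the authors extracted RNA with a column kit, enriched polyadenylated RNA, sequenced paired reads, quantified transcripts with kallisto 0.46.2 (build GRCm38, both from the submitters' processing notes), joined transcripts into genes with biomaRt, left out genes of low expression and divided by DESeq2 size factors. The deposited values are thus a signal, in normalized counts. They are not TPM, although the table bears that name, since their sums differ between tumors. The tests had been set for TPM, and limma on log2 values fits both.

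Values were converted to log2(value + 1), which understates changes of low genes, and 19667 genes with at least 1 in at least 3 tumors were fitted with limma 3.58.1 in R 4.3.3, with a variance trend, no covariate and Benjamini-Hochberg adjustment over all tested genes. Python 3.11.15 was used for tables. A count model was not used, because the table is described as TPM. The values were also checked for whole reads (within 0.1 of a read, up to 5 reads). Of the low values of genes with 1 transcript, 95.3% to 99.3% were whole, against 43.4% to 50.6% for genes with several. The fit was tested on simulated data. Gene positions, lengths and coding sequences come from GENCODE M21 (GRCm38), matched by symbol for 94.8% of genes.

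The members, the gene lists and the tests were chosen with earlier results of these data known. Genes were named by rule: the 10 members, *Tgm2*, the 3 most abundant genes and the 2 of lowest p of each list other than the marker lists, the most abundant gene of each marker list, genes past the limits, and the 3 most similar genes of 5 members. Other genes were named after their values were seen. Lists were described by counts and medians, without a set test. Alternatives changed the pseudocount, filter, scaling, weights, variance trend, covariate, replicate block and the tumors included.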

Additional observations from a re-analysis of the deposited data

How the results depend on the processing

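Over 16 alternatives for each of the 10 genes, 139 of 160 log2 fold changes kept their sign and 0 passed an adjusted p of 0.05. *Mmp2*, *Mmp3*, *Mmp9* and *Timp2* kept their sign in all 16. The 21 reversals concern *Mmp11*, *Mmp12*, *Mmp13*, *Mmp14*, *Timp1* and *Timp3*, and the cause was not tested. With the white adipocyte covariate the log2 fold changes were -0.38 for *Mmp11*, -0.73 for *Mmp12*, -1.47 for *Mmp13*, -1.74 for *Timp1* and -0.55 for *Timp3*, and 2 members were lower at an unadjusted p of 0.05, *Mmp3* (-2.95, adjusted p = 0.528 from limma) and *Timp2* (-1.21, adjusted p = 0.528 from limma). With array weights they were -0.0086 for *Mmp11*, -0.15 for *Mmp13* and -0.22 for *Timp1*, and with quantile normalization -0.0033 for *Timp1*. Without 1 tumor at a time, they ranged from -0.081 to 0.12 for *Mmp11*, from -0.46 to 0.38 for *Mmp13*, from -0.13 to 0.16 for *Mmp14*, from -0.55 to 0.43 for *Timp1* and from -0.13 to 0.47 for *Timp3*. With 1 tumor left out, the count of members at an unadjusted p of 0.05 ranged from 0 to 2 higher (*Mmp2* and *Mmp12*, without WT tumor 1) and from 0 to 1 lower (*Mmp3*, without knockout tumor 2). For these counts, and for the count with the adipocyte covariate, the share of all genes in the same fit is not given. They are therefore not read as a result about the members.

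The count of all genes past both limits, 20 higher and 0 lower, was 5 higher with the replicate block, 4 without the variance trend and 0 with the adipocyte covariate. Without 1 tumor it ranged from 2 (without WT tumor 2) to 14 higher and from 0 to 1 lower (without WT tumor 1). Nothing in the labels says that equal replicate numbers mark a shared animal or day. Deviations from the group means correlated at -0.196, 0.284 and -0.307 between tumors of equal number. They correlated at 0.359 between WT tumor 1 and knockout tumor 3, and at 0.355 between WT tumor 3 and knockout tumor 1. With so few tumors per group, these values cannot decide whether equal numbers mark a pair. With the replicate block 0 members passed an adjusted p of 0.05 in limma. The lowest value of any of the 10 genes was 123 normalized counts, and the effect of depth on their precision was not tested.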
